A study of Mus musculus with 2 samples.

Results

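The genes described here are the heat shock proteins outside the endoplasmic reticulum stress group, their DnaJ partners, the BAG proteins and the heat shock transcription factors. They were chosen by symbol alone, as genes whose names begin with Hspa, Hspb, Hspd, Hspe, Hsph, Hsp90, Hsf, Dnaja, Dnajb, Dnajc or Bag with a number where the family has one. The endoplasmic reticulum stress chaperones Hspa5, Hsp90b1, Dnajb9, Dnajb11 and Dnajc3 were set aside, as were Hspbap1 and Hspbp1. This gave 72 genes of 15113 listed in either library. The name rule does not keep strictly to the cytosol. Of the 72 genes, 10 were assigned by a fixed list to mitochondria, such as Hspa9, Hspd1 and Hspe1, and 9 to the endoplasmic reticulum membrane or lumen. A further 2 (Hspb11 and Hsf2bp) share only a name with the families. The other 51 were not assigned to an organelle.

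RNA sequencing was done on 2 libraries of lung epithelial cells from C57BL/6 mice aged 6 to 8 weeks, sorted as CD45-negative and Sftpc-positive. The control library came from wild-type animals without tumour, and the tumour-bearing library from animals given 1000000 luciferase-labelled LLC cells, a mouse Lewis lung carcinoma line, under the skin of the back. The model is one of spontaneous lung metastasis. The sources used here do not give the time after injection or how many animals went into a library.

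Chaperones of the HSP70 class bind unfolded stretches of protein and release them after ATP hydrolysis. DnaJ proteins bring them clients and stimulate the hydrolysis, whereas HSP110 and BAG proteins exchange the nucleotide. HSP90 acts later, on nearly folded clients such as kinases and steroid hormone receptors, and small heat shock proteins hold unfolded protein without ATP. Part of this network is constitutive, and part is induced by stress through heat shock factor 1 (HSF1), which binds repeats of the letters GAA and TTC in promoters. Tissue dissociation is itself known to induce such genes.

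The deposited unit was RPKM, reads scaled to gene length and to the library total. The totals recovered from the values were 5335352 control reads and 5387114 tumour-bearing reads. Sftpc was at 94902.5 RPKM and 54968.1 RPKM, and Ptprc, which encodes CD45, had 12 and 2 reads. Markers of other cells differed between the libraries. In summed RPKM, with the control first, 12 fibroblast markers were at 164 and 845, 14 endothelial markers at 50.8 and 194, and 10 alveolar type 1 (AT1) markers at 1846 and 2929. For 12 alveolar type 2 markers, the labelled cell type, the sums were 128666 and 89403, with none at 0. Sftpc made up the difference in the sums, since the other 11 summed to 33763 and 34435. Single markers were not level. Of the 12, 4 were higher and 8 lower in the tumour-bearing library, with a median log2 ratio of -0.27. Past 2-fold, 1 (Sftpd) was higher and 2 (Hc and Etv5) were lower. Among 10 macrophage markers, Lyz2, which type 2 cells also express, was at 21565 and 11436 RPKM, and the others together at 68.1 and 166. Of 8 macrophage markers tested, 4 were at least 2-fold higher and 1 lower. The sums of 8 club cell markers were 38912 and 43351, with 2 at least 2-fold higher and 2 lower, and those of 10 other leukocyte markers were 11.3 and 10.02. Of all genes tested, 9.38% were at least 2-fold higher and 6.53% lower. Pairs of values are given with the control first throughout. Each group held 1 library, so differences could not be set against replicates and p-values were not computed. Intervals are exact 95% intervals of the ratio of reads and cover counting error only.

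The binding letters of HSF1 were looked for in the promoters, since they are what the induced members are known to share. RefSeq windows on GRCm38.p6, from 250 bases before to 50 bases after each annotated start, were at hand for 55 of the 72 genes. The 8-letter motif searched was GAANNTTC or TTCNNGAA, each of which reads the same on both strands. It lay in a window of 10 of 12 genes known to be induced through HSF1 (83.3%) and of 5 of the 43 other members (11.6%). Among all tested genes with a window, 13.8% held it. The 8-letter motif was chosen after the longer one below had been searched. The 10 are not all separate sequences, since Hspa1a and Hspa1b have identical letters around the match and Hspd1 and Hspe1 share 1 stretch. In Bag3 and Hspb8, also among the 10, the only match lay after the annotated start. The longer motif, GAANNTTCNNGAA or its reverse complement, lay in 4 of the 55 (Hspd1, Hspe1, Hsph1 and Dnajb6) and in 0.552% of tested genes. For Hsph1 this longer match lay after the annotated start. A match is a string of letters and not a shown binding site. The stretches below, printed in the direction of transcription, hold the 8-letter matches in capitals for induced members with contrasting values. They run up to 30 bases to each side, and matches after the annotated start are left out.
Hspa1a: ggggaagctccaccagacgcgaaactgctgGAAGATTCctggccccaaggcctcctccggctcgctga
Hspa1b: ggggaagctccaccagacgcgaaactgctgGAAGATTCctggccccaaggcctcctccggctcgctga
Hspb1: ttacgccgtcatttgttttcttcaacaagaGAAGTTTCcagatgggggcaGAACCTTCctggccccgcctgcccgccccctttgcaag
Hsph1: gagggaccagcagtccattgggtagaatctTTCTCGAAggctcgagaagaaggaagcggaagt
Dnaja1: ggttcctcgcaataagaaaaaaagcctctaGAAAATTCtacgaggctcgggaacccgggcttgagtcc
Dnajb4: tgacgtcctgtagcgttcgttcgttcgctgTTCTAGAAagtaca
Hspe1: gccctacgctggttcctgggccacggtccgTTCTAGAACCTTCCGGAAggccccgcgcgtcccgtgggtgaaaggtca
The Hspa1a stretch is chr17:34972223-34972290 and the Hspa1b stretch chr17:34959305-34959372, both on the minus strand, and their letters are identical. Hspb1 is shown at chr5:135887772-135887859 on the plus strand, with matches beginning 117 and 97 bases before the start. For Hsph1 the stretch is chr5:149636337-149636399, with 1 of its 3 matches, since the others lie after the start, and for Dnajb4 chr3:152193846-152193889, both on the minus strand, and for Dnaja1 chr4:40722314-40722381 on the plus strand. The Hspe1 stretch, chr1:55088029-55088106 on the plus strand, also lies in the window of its neighbour Hspd1, which is read from the other strand. Dnajb1 and Hspa4l, also on the induced list, had windows without these letters, and Hspa8 and Hsp90aa1 are named without a sequence.

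As a group, the 72 genes were about equally abundant in both libraries on the values as deposited. Their summed RPKM was 3768 and 3534, which is 0.737% and 0.720% of all RPKM. Sftpc alone held 18.6% and 11.2% of all RPKM, so these shares depend on it. The ratio of the members' sums, 0.938 as deposited, was 0.872 with upper-quartile scaling. Of the 72 genes, 68 had a row in the control data and all 72 had one in the tumour-bearing data. The 5 most abundant members made up 59.2% and 59.5% of the members' sum. In the bulk RNA, fewer cells of a type and less RNA per cell cannot be told apart.

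Few members were past 2-fold, and they went both ways. With a filter of 1 RPKM in whichever library was higher, 66 of the 72 genes were compared on log2((tumour-bearing RPKM + 1)/(control RPKM + 1)). At least 2-fold higher in the tumour-bearing library were 4 of 66 (6.06%), against 9.38% of 12288 genes in all. At least 2-fold lower were also 4 of 66 (6.06%), against 6.53% of all. Both shares are near the background. The higher genes were Hspb1, Dnajc4, Dnajc5 and Hspa12b, and the lower ones Hsph1, Dnajc9, Dnajc27 and Hspb11. Under upper-quartile scaling the numbers were 3 (4.55%) and 6 (9.09%), against 7.83% and 7.58% of all genes under that scaling. Because the scale understates ratios of low genes, the ratio of recovered reads, with 0.5 read added, gave 6 higher (9.09%) and 7 lower (10.6%), against 12.8% and 10.5% of all genes. It added Bag5 and Dnajb14 to the higher genes and Dnajc15, Hspa1l and Dnajb3 to the lower ones. At 10 RPKM or more, 3 of 49 members were higher and 3 lower, against 7.38% and 4.33% of all genes at that level. The median log2 ratio of the 66 was -0.05, against 0.06 over all genes tested, and without the filter it was -0.04 over the 72. A counting interval wholly above 1 was found for 17 of 66 members (25.8%) and one wholly below 1 for 26 (39.4%), against 33.1% and 26.5% of all genes with recovered reads. Intervals narrow as reads increase, and 49 of the 66 members but 6164 of the 12288 genes were at 10 RPKM or more.

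**Figure D1:**
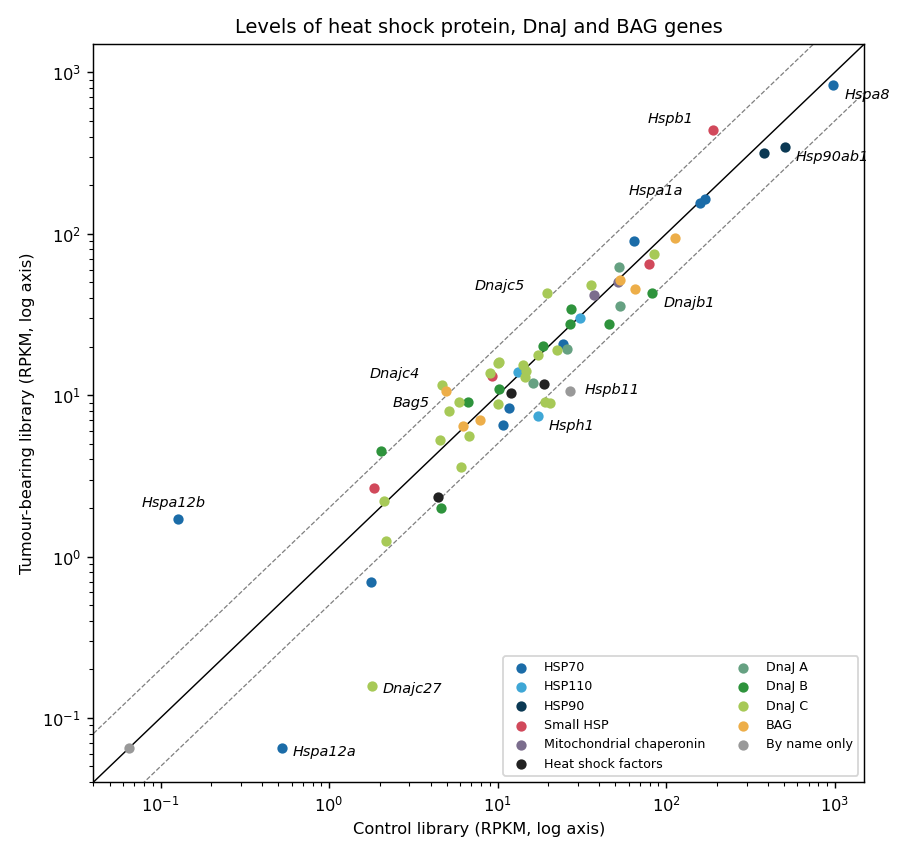
RPKM of each member in the control library (x axis) and the tumour-bearing library (y axis), both on log axes, for the 68 genes listed in both. Colours give the family, the solid line equal levels and the dashed lines 2-fold differences. Hspb1 lies above the upper dashed line at 189 and 439 RPKM, while Hspa8 and both HSP90 genes lie slightly below the solid line.

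Hspa8 and the HSP90 genes Hsp90ab1 and Hsp90aa1 were moderately lower in the tumour-bearing library. Hspa8 (GeneID 15481, chromosome 9, 40801276 to 40805202 on mm10), the constitutive cytosolic HSP70, led both libraries, at 984 and 837 RPKM. That is 1.18-fold lower (1.14 to 1.21), from 11044 and 9483 reads. Hsp90ab1 (chromosome 17, 45567778 to 45573261), the constitutive HSP90, was at 505 and 347 RPKM, 1.46-fold lower (1.4 to 1.51). Its stress-inducible relative Hsp90aa1 (chromosome 12, 110691036 to 110696395) was at 381 and 316 RPKM, 1.21-fold lower (1.16 to 1.25). Hence Hsp90ab1 stood at 1.33 times the level of Hsp90aa1 without tumour and at 1.10 times with tumour. All 3 ratios lie within 2-fold, and their intervals do not reach 1. For the 3 genes the log2 ratios were -0.23, -0.54 and -0.27. Hspa8 and Hsp90aa1 are also on the list of genes known to be induced through HSF1, and are counted again there.

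The inducible HSP70 genes were nearly level between the libraries. Hspa1a (GeneID 193740, chromosome 17, 34969359 to 34972156) was at 169.5 and 164 RPKM, from 2531 and 2477 reads. Hspa1b (chromosome 17, 34956429 to 34959238) was at 159 and 154 RPKM, from 2380 and 2338 reads. As deposited, each was 1.03-fold lower, with intervals of 0.976 to 1.09 and 0.970 to 1.09 that include 1. With upper-quartile scaling their log2 ratios were -0.15 and -0.14, outside these intervals. These genes encode near-identical transcripts, so reads could be split between them, and their values are not separate measurements. Both were abundant in both libraries, ranking 5 and 6 of the 72 members in each. Hspa1l, their neighbour on chromosome 17, is known mainly from testis and had 23 and 9 reads. Hspa2, also best known from testis, was at 24.3 and 20.6 RPKM. Hspa14, a ribosome-associated HSP70, was at 11.6 and 8.29 RPKM. Hspa13, an HSP70 of the endoplasmic reticulum, was 1.67-fold lower (1.35 to 2.06), at 10.8 and 6.49 RPKM.

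In the HSP110 family, nucleotide exchange factors of HSP70, 1 of 3 genes was past 2-fold. Hsph1 (GeneID 15505, chromosome 5, 149616843 to 149636498), the heat-inducible member, was at 17.4 and 7.47 RPKM, 2.33-fold lower (1.90 to 2.86), from 323 and 140 reads. Hspa4 and Hspa4l, its relatives, were level, at 30.6 and 29.9 RPKM and at 13.2 and 13.9 RPKM. Per length, the level of Hspa1a was 9.74 times that of Hsph1 without tumour and 22 times with tumour. The inducible genes thus differed unequally. With a pseudocount of 5 the log2 ratio of Hsph1 was -0.85 instead of -1.12.

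Hspb1 encodes the small heat shock protein HSP27 (the mouse protein is also called HSP25), which binds unfolded protein and stabilises actin filaments. It had the highest log2 ratio of the members at 10 RPKM or more. The gene (GeneID 15507, chromosome 5, 135887919 to 135889563) was at 189 and 439 RPKM, from 919 and 2158 reads. This is a log2 ratio of 1.21 and a 2.33-fold higher level (2.15 to 2.52). Dnajc4, from 21 and 52 reads, had a log2 ratio of 1.14 but a direct ratio of 2.45. By level Hspb1 ranked 4 among the members without tumour and 2 with tumour, above both HSP90 genes. Hspb8, which works with Bag3 in selective autophagy, went the other way, at 78.7 and 64.8 RPKM, 1.21-fold lower (1.09 to 1.35). Their ratio, Hspb1 to Hspb8, was 2.40 and 6.77. Hspb6, known from muscle, was at 9.22 and 13.2 RPKM. Hspb2, also a muscle gene, had 9 and 13 reads, and Hspb7 had 0 and 8. The counting interval of Hspb7 begins at 1.69-fold higher, and the gene stayed below 1 RPKM. Cryab, a small heat shock protein gene outside the name rule and named after its values were seen, was 1.98-fold higher (1.67 to 2.34), at 33.5 and 66.3 RPKM. Exons of Cryab overlap those of Hspb2 by 252 bases on the opposite strand, so without a known strand setting reads of these 2 cannot be told apart.

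Markers of AT1 cells, fibroblasts and smooth muscle summed to more in the tumour-bearing library, where Hspb1 was also higher. Club and ciliated cell markers went both ways, with 4 of 8 and 6 of 12 below 0 on the log2 scale. All 10 AT1 markers were above 0 on the log2 scale, and 5 of them were at least 2-fold higher, against 53.8% and 9.38% of all genes tested. Of the fibroblast markers, 10 of 11 tested were at least 2-fold higher, against the same 9.38%, with Lum and Tcf21 at 0 in the control library. Smooth muscle markers summed to 2.20 and 7.85 RPKM, with 6 of 8 at 0 in the control and 1 of 8 in the tumour-bearing library. Acta2 and Myh11 were among the 6, with 3 and 16 reads in the tumour-bearing library. Only 2 of the 8 passed the filter. These were Tagln, with 1 and 27 reads, and Des, with 24 and 41 reads and an interval that includes 1. The part of these cells in the values of the small heat shock protein genes was not tested. Hspa12b, an atypical HSP70 gene known from endothelium, had 2 and 27 reads, 13.4-fold higher (3.36 to 116). Of 14 endothelial markers, 12 were at least 2-fold higher, against 9.38% of all genes tested, with none at 0 in either library. The other 2 were below 0 on the log2 scale, 1 of them with an interval wholly below 1. The part of endothelial RNA in the difference of Hspa12b was not tested either. Its relative Hspa12a had 16 and 2 reads.

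**Figure D2:**
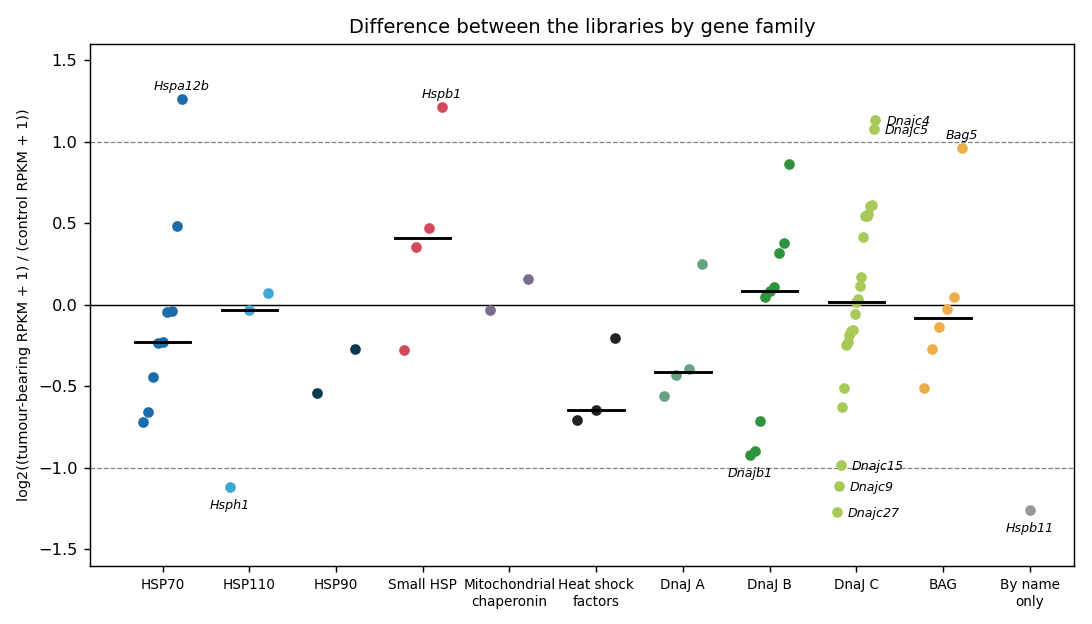
log2((tumour-bearing RPKM + 1)/(control RPKM + 1)) of the 66 members that passed the filter, by family. Points are genes, bars the median of families with more than 2 such genes, and dashed lines 2-fold. The 3 heat shock factor genes all lie below 0, and the DnaJ C genes spread from -1.27 to 1.14.

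All 3 heat shock factor genes that were detected had lower values in the tumour-bearing library, as did 46.2% of all genes tested. Hsf1 (GeneID 15499, chromosome 15, 76477362 to 76501155), the main stress-activated factor, was at 18.9 and 11.8 RPKM, 1.61-fold lower (1.28 to 2.02), from 204 and 128 reads. Hsf2, a factor best known from development, was 1.90-fold lower (1.22 to 2.99), at 4.43 and 2.34 RPKM. Hsf4, known from the lens, was at 12.1 and 10.4 RPKM with an interval that includes 1 (0.880 to 1.55). No factor was past 2-fold. Activity of HSF1 is known to be set mainly by its protein state, which RNA does not measure.

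DnaJ proteins carry a J domain that stimulates HSP70. Of the 39 DnaJ genes, 36 were tested, of which 2 (5.56%) were past 2-fold upwards and 2 downwards, against 9.38% and 6.53% of all genes. Their median log2 ratio was 0.03, and it was below 0 with each of the 3 other scalings, at -0.01, -0.07 and -0.03. An interval wholly above 1 was found for 12 of them and one wholly below 1 for 12 (33.3% each), against 33.1% and 26.5% of all genes.

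Among class A and B DnaJ genes, the 3 on the HSF1-induced list (Dnajb1, Dnajb4 and Dnaja1) were lower. Dnajb1 (GeneID 81489, chromosome 8, 83608175 to 83612653), the main inducible partner of HSP70 in disaggregation, was at 82.9 and 43.2 RPKM. It was 1.92-fold lower (1.72 to 2.13), from 1010 and 532 reads. Dnajb4 (chromosome 3, 152181580 to 152210432), a close relative, was at 45.7 and 27.5 RPKM, 1.66-fold lower (1.46 to 1.88). Dnaja1, which serves HSP70 in protein folding and import into mitochondria, was at 53.0 and 35.7 RPKM, 1.49-fold lower (1.38 to 1.61), and Dnaja4 1.33-fold lower (1.14 to 1.54). Dnaja2, the constitutive relative, was instead 1.19-fold higher (1.08 to 1.31), at 52.3 and 62.3 RPKM. Dnajb6, which suppresses aggregation of polyglutamine proteins, was 1.26-fold higher (1.10 to 1.44), and Dnajb2 was at 18.6 and 20.1 RPKM. Exons of Dnaja1 overlap 608 bases of Smu1, and those of Dnaja4 1581 bases of Wdr61, on the opposite strand. Dnajb13, a gene of motile cilia, was at 10.2 and 10.9 RPKM, while 12 ciliated cell markers summed to 502 and 433 RPKM, 6 above and 6 below 0. Exons of Dnajb13 overlap Ucp2, at 103 and 109 RPKM, by 305 bases on the opposite strand.

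Class C DnaJ genes, whose proteins have specialised sites and clients, held the widest range. Dnajc5 (GeneID 13002, chromosome 2, 181518858 to 181552886), cysteine string protein alpha, a chaperone of secretory vesicles, was at 19.7 and 42.8 RPKM. It was 2.17-fold higher (1.94 to 2.43), from 463 and 1015 reads, with a log2 ratio of 1.08 that was 0.95 with a pseudocount of 5. Dnajc4 (chromosome 19, 6987911 to 6992591), a mitochondrial protein, was 2.45-fold higher (1.45 to 4.29), from 21 and 52 reads. Dnajc2, a ribosome-associated partner of Hspa14, was 1.58-fold higher (1.24 to 2.03), whereas Hspa14 itself was 1.4-fold lower (1.04 to 1.89). Dnajc21, of ribosome biogenesis, was 1.52-fold higher (1.17 to 1.98), at 9.04 and 13.7 RPKM. Dnajc11, of the mitochondrial cristae machinery, was 1.57-fold higher (1.28 to 1.93), at 10.2 and 16.0 RPKM.

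On the lower side, Dnajc9 (chromosome 14, 20384638 to 20388910), a chaperone of histones, was at 20.6 RPKM and 8.99 RPKM, 2.29-fold lower (1.75 to 3.02), from 179 and 79 reads. Dnajc15 (chromosome 14, 77826217 to 77874917), of the mitochondrial inner membrane, was 2.08-fold lower (1.35 to 3.26) from 68 and 33 reads, with a log2 ratio of -0.98 just inside 2-fold. Dnajc27, a Rab-like GTPase gene, had 45 and 4 reads, 11.4-fold lower (4.14 to 43.5), at 1.79 and 0.158 RPKM. Hspb11, a member by name only that encodes the intraflagellar transport protein IFT25, was 2.52-fold lower (1.66 to 3.93), at 26.8 and 10.6 RPKM. The remaining DnaJ C genes at 10 RPKM or more included Dnajc8, of splicing, at 84.7 and 74.5 RPKM, and Dnajc7, a partner of both HSP70 and HSP90, at 35.8 and 48.1 RPKM.

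Mitochondrial members did not share a direction. Their 10 genes had a median log2 ratio of 0.00, 5 above and 5 below 0, with summed RPKM of 235 and 260. Hspa9, mortalin, the HSP70 of the matrix and of protein import, was at 64.2 and 90.1 RPKM, 1.4-fold higher (1.30 to 1.52), from 1050 and 1488 reads. Hspd1 and Hspe1, the chaperonin and its lid, were at 37.4 and 41.8 RPKM and at 51.6 and 50.4 RPKM, both with intervals that include 1. Their shared promoter stretch is printed above. Dnaja3, a matrix DnaJ protein that works with Hspa9, was 1.38-fold lower (1.13 to 1.69), Dnajc15 was lower and Dnajc4 and Dnajc11 were higher, as given above. Dnajc19, Dnajc28 and Dnajc30 had intervals that include 1. The 8 tested members assigned to the endoplasmic reticulum had 5 above and 3 below 0 and none past 2-fold. Of all genes tested, 53.8% were above 0 and 46.2% below.

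BAG proteins, which release clients from HSP70, were mostly close to level. Bag3 (GeneID 29810, chromosome 7, 128523583 to 128546981), the stress-inducible member, was 1.43-fold lower (1.29 to 1.59), at 65.4 and 45.7 RPKM from 910 and 642 reads. Bag1, which links HSP70 to the proteasome, was the most abundant, at 113 and 93.8 RPKM, 1.21-fold lower (1.09 to 1.34). Bag5 (chromosome 12, 111709488 to 111713256) was 2.14-fold higher (1.55 to 2.98), at 4.97 and 10.6 RPKM from 57 and 123 reads, with a log2 ratio of 0.96. Bag6, of the quality control of tail-anchored proteins, was at 53.0 and 52.0 RPKM. Bag2 was 1.11-fold lower and Bag4 1.04-fold higher, with intervals that include 1.

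Taking the 14 genes known to be induced through HSF1 from all these families, most were lower in the tumour-bearing library. All 14 passed the filter, 11 were below 0, with Hsph1 past 2-fold downwards and Hspb1 past 2-fold upwards, 1 gene each (7.14%, against 6.53% and 9.38% of all genes). Over all genes tested, 46.2% were below 0 and 53.8% above. The median log2 ratio of the 14 was -0.25, against -0.03 for the 52 other members tested and 0.06 for all genes. A counting interval wholly below 1 was found for 8 of the 14 (57.1%), against 26.5% of all genes, and one wholly above 1 for Hspb1 alone (7.14%), against 33.1%. All 14 were at 10 RPKM or more, as were 6164 of the 12288 genes tested, and intervals narrow as reads increase, so these interval shares are not like for like. On the values as deposited, the intervals of Hspa1a, Hspa1b, Hspd1, Hspe1 and Hspa4l included 1. Hspa1a and Hspa1b, both among the 11, are not separate measurements. The list was chosen with earlier results of these data known. Because Hspb1 was abundant, the summed RPKM of the list moved less than its median, from 2328 to 2241. By promoter letters, 11 of the 15 tested members with the 8-letter motif were below 0, with a median of -0.23, and 18 of the 36 without it, with a median of -0.01. This is not a separate result, since 10 of the 15 are on the HSF1-induced list. The other 5 ranged from -1.27 to 0.47.

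**Figure D3:**
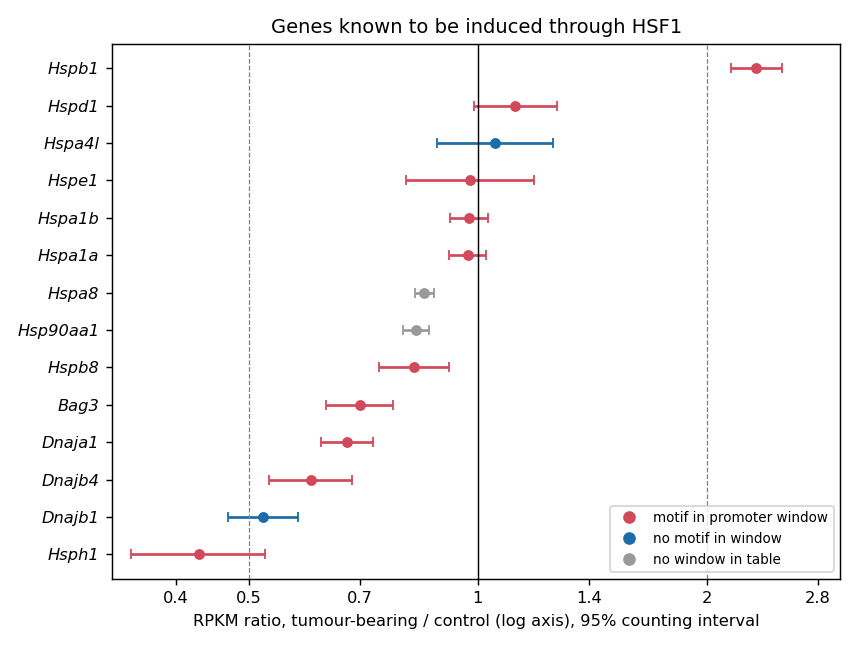
Ratio of RPKM, tumour-bearing to control (log axis), of the 14 members known to be induced through HSF1, with exact 95% counting intervals as bars. Colours give whether the 8-letter motif lay in the promoter window, which runs to 50 bases after the annotated start, and dashed lines mark 2-fold. Hsph1 at the bottom is 2.33-fold lower and Hspb1 at the top 2.33-fold higher, while Hspa1a and Hspa1b lie next to the line of equal levels.

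Immediate early genes, which like heat shock genes are known to rise during tissue dissociation, were lower by more. All 23 were below 0 and 11 (47.8%) at least 2-fold lower, against 46.2% and 6.53% of all genes tested. Their median log2 ratio was -0.95, against 0.06 for all genes. This list too was chosen with earlier results of these data known. Fos, the most abundant in the control library and by the sum of both, was at 1335 and 459 RPKM, 2.91-fold lower (2.82 to 3.01). Whether handling differed between the libraries was not tested, and the part of such a difference in the heat shock values was not tested.

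**Figure D4:**
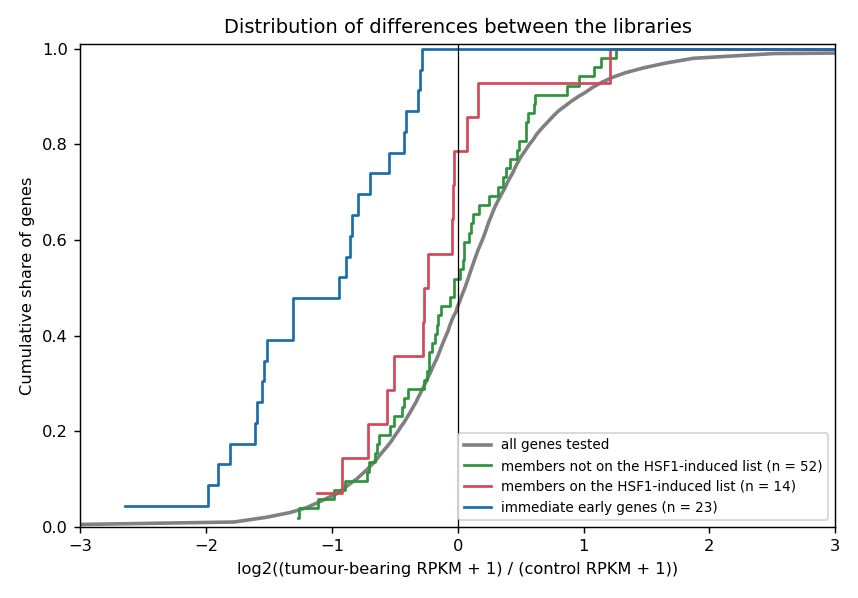
Cumulative share of genes (y axis) by log2((tumour-bearing RPKM + 1)/(control RPKM + 1)) (x axis) for all 12288 genes tested, the 52 members not on the HSF1-induced list, the 14 members on it and 23 immediate early genes. The axis ends at -3 and 3. The curve of the 52 follows that of all genes, with medians of -0.03 and 0.06, and the curve of immediate early genes lies to the left, with a median of -0.95.

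Partner genes of the same machinery outside the name rule were mostly within 2-fold. Of 21 co-chaperones of HSP90 and HSP70, 20 were within 2-fold and 1, Fkbp5, was higher. Fkbp5, an immunophilin that holds steroid receptors on HSP90 and is itself induced by glucocorticoids, was at 0.724 and 36.9 RPKM. That is 51.0-fold higher (30.8 to 91.6), from 15 and 773 reads. Fkbp4, the related immunophilin and the most abundant of the list, was 1.81-fold lower (1.67 to 1.95), at 155 and 85.9 RPKM. Named after their values were seen, Chordc1 and St13 were 1.94-fold (1.51 to 2.5) and 1.77-fold (1.5 to 2.09) lower, and Cacybp was 1.87-fold higher (1.47 to 2.39). A list of 9 other known HSF1 targets, 5 of which (Cryab, Fkbp4, Chordc1, St13 and Cacybp) are named here, had none past 2-fold, 4 above and 5 below 0 and a median log2 ratio of -0.06. All 8 subunits of the cytosolic chaperonin TRiC were within 2-fold, with summed RPKM of 430.1 and 421. Cct5, the most abundant subunit in the control library and by the sum of both, was at 108 and 72.6 RPKM, and Cct2, named after its values were seen as the most abundant in the tumour-bearing library, at 68.1 and 75.8 RPKM. The 6 prefoldin subunits, which pass actin and tubulin to TRiC, were also within 2-fold, with Pfdn5 the most abundant at 226 and 190 RPKM. The 5 endoplasmic reticulum chaperones set aside by the name rule summed to 868 and 648 RPKM. Of these, Hspa5, the most abundant, was 1.44-fold lower (1.38 to 1.5), a ratio close to the 1.46 of Hsp90ab1.

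Of the 72 members, 6 did not reach 1 RPKM in either library. Besides Hspb7 and Hspa12a, these were Dnajc5b, with 0 and 4 reads, Dnajc22, with 0 and 2, Dnajc6, with 0 and 1, and Hsf2bp, with 1 and 1. Differences of these 4 were not detectable at this depth.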

How the data were processed

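The authors deposited 1 table per library with GeneID, symbol, description and RPKM, per the file headers. Per the submitters' processing notes, Trimmomatic and mm10 were used, and the sources used here name no aligner, counting tool, annotation, strand setting or pooling of animals. Selection of RNA with oligo(dT) beads and enrichment by PCR are recorded per the labels' protocols, and PCR reads without molecular identifiers are not independent molecules. Genes missing from a table were taken as 0.

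Whole reads were recovered from the deposited RPKM. The last 150 rows of each table gave whole gene lengths, within 0.003 base, at 1 library total when each row was taken as 1 read. Rows are in descending order of reads, which settled multiples. Genes in the first 8 rows of a table were left without reads. A gene's reads were accepted where they gave a whole length within 0.02 base. Reads were obtained for 15071 of 15113 genes (99.7%) and for all 72 members. The totals are estimates and not stated by the authors.

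With 1 library per group there was no test. Values were compared as deposited, with 1 RPKM added, a filter of 1 RPKM in whichever library was higher, and a size rule of 2-fold. Folds are direct ratios with exact (Clopper-Pearson) conditional binomial 95% intervals. Members at 10 RPKM or more past 2-fold or with the 8 highest or 8 lowest log2 ratios, the 5 most abundant, and Hspa1a, Hspa1b, Hsph1, Hspb1, Dnajb1, Hsf1 and Bag3 were given in full. Genes outside the members were named as the most abundant of a list or past 2-fold, with exceptions stated. Members and lists were chosen with earlier results of these data known, and the 8-letter motif after the longer one had been searched. Coordinates are those of RefSeq on GRCm38, the assembly that mm10 denotes. Exon overlaps are from GENCODE M21. Python 3.11.15, NumPy 2.4.6, pandas 2.3.3 and SciPy 1.17.1 were used, and the procedure was tested on simulated data.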

Additional observations from a re-analysis of the deposited data

How the results depend on the processing

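No paired analysis was possible because each group held 1 library. The count of members at least 2-fold higher, 4, was 1 with a pseudocount of 5 (1.52%, against 3.01% of all genes), 8 at a threshold of 1.5-fold (12.1% against 19.4%) and 0 at 4-fold (against 1.66%). The count at least 2-fold lower, also 4, was 7 with a pseudocount of 0.1 (10.6% against 10.1%), 1 with a pseudocount of 5 (1.52% against 1.55%), 7 on recovered reads (10.6% against 10.5%), 13 at 1.5-fold (19.7% against 16.1%) and 0 at 4-fold (against 0.61%). Both counts therefore depended on how low values were treated. With no filter, a filter at 5 RPKM, trimmed-mean scaling, upper-quartile scaling or centring on the median, they ranged from 3 to 4 and from 3 to 6. The ratio of summed RPKM, 0.938, was 0.906 with trimmed-mean scaling and 0.872 with upper-quartile scaling. The median log2 ratio of the members lay between -0.16 and -0.04 in these settings and without the mitochondrial, endoplasmic reticulum and name-only members, and that of the HSF1-induced list between -0.36 and -0.25. Upper-quartile scaling moved log2 ratios down by 0.10, and the median of all genes from 0.06 to -0.04. None of the 22 members given in full changed sign in the 8 settings tried for single genes, and 165 of 176 values stayed inside the counting interval. The 11 outside were those of Hspa8, Hsp90aa1, Hsp90ab1, Hspa1a and Hspa1b under rescaling or centring, and of Hsph1 and Dnajc5 with a pseudocount of 5. Few reads limit genes such as Dnajc4, Hspa12b and Dnajc27.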
